A study of Mus musculus with 2 samples.

Results

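Glycolysis and hypoxia response genes were examined in CD45+ cells of the mouse heart under pressure overload. The 32 genes were taken by their symbols from the 27809 gene rows of the count matrix, and all 32 had a row. They were read in 5263 cells of 5 groups of male 8-week-old C57BL/6N mice, or CD3e-/- mice on a C57BL/6 background, taken 1 week after surgery. WT sham had a sham operation, and WT TAC had transverse aorta constriction (TAC), in which a suture narrows the aortic arch and the left ventricle works against a higher pressure. CD3e-/- sham and CD3e-/- TAC mice lack the CD3e chain of the T cell receptor complex throughout life, so that T cells do not mature in them. CD8-depleted TAC were WT mice with TAC that also received an antibody to CD8. All cells were captured together in 1 library, in which a hashtag on the cell surface marks the group. Each group was thus 1 sample, and the number of mice behind a hashtag is not given in the sources used here. For that reason no test and no p-value is given, intervals cover counting error only, and whether a difference would recur in other mice cannot be told.

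Glycolysis splits glucose into pyruvate and yields ATP without oxygen, and lactate dehydrogenase then turns pyruvate into lactate. When oxygen is short, the prolyl hydroxylases Egln1 and Egln3 no longer mark the factor Hif1a for decay, and Hif1a raises the transcription of glucose carriers, glycolytic enzymes and genes such as *Bnip3*, *P4ha1* and *Egln3* itself. In macrophages the same factor is also raised by inflammatory signals, and inflammatory monocytes and macrophages are known for a high rate of glycolysis. Hif1a is regulated mostly at the level of the protein, which was not measured here.

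Hif1a and its partner bind DNA at a short core, read here as ACGTG or GCGTG on either strand. The 250 bases before the start of transcription (RefSeq, build GRCm38.p6) were found for 30 of the 32 members, not for *Slc2a3* and *Bnip3l*. Some members have several starts, and 33 of their 40 windows held the core at least once (82.5%), against 38.6% of the 32817 windows of all genes. Both forms of the core hold a CG, and the median share of G and C was 62.8% in the windows of the members and 52.4% in all windows; base composition was not matched. The core overlaps the motif CACGTG, which other factors also bind. It was held by 4 of the 40 member windows and by 6.02% of all windows. *Gpi1*, *Tpi1* and *Mif* had no match in the windows searched. The windows of 5 members that the comparisons below turn on are shown, with each match to the core in capitals. *Ldha* and *Bnip3* are shown for 5 matches each, counted on both strands, *Pgk1* and *Slc16a3* for 2 each, and *Tpi1* as a member without one. A CACGTG reads as the core on both strands and so makes 2 matches in 1 stretch of capitals. *Ldha* has 2 windows, and that of the upstream start is shown; the other held 1 match.
Ldha, chr7:46845554-46845803, plus strand: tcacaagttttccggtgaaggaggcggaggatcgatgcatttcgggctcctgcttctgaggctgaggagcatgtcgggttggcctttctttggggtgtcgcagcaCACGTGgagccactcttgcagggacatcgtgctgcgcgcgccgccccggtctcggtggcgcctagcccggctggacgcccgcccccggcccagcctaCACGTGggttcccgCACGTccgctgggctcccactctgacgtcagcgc
Pgk1, chrX:106186850-106187099, plus strand: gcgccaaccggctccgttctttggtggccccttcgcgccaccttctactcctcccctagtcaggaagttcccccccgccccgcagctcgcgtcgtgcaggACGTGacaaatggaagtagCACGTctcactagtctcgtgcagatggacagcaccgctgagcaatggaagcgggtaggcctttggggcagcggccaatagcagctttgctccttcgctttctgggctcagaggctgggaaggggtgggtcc
Slc16a3, chr11:120948817-120949066, plus strand: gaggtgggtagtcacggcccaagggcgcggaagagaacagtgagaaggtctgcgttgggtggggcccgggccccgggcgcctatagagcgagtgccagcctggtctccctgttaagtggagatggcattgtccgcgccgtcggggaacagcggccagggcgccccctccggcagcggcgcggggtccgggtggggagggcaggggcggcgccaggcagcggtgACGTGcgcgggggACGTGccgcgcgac
Bnip3, chr7:138909507-138909756, minus strand: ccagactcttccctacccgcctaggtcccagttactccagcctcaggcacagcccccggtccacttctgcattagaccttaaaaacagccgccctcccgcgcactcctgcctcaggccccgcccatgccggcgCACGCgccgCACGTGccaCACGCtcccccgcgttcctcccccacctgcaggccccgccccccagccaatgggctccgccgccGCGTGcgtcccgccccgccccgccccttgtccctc
Tpi1, chr6:124814159-124814408, minus strand: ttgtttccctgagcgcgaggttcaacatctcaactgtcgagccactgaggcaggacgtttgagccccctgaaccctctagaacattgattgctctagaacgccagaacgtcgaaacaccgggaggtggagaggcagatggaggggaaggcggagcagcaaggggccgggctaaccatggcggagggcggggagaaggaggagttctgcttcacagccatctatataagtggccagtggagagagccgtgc
A match says only that these letters are present, not that a factor binds there.

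Reads were summed over the cells of a group or class and are given as CPM, the reads of a gene scaled to all reads of those cells. Such values compare 1 gene between groups, and not 1 gene with another, since they were not divided by length. Cells with at least 200 CPM of *Csf1r*, at least 1000 CPM of *Lyz2* and under 500 CPM of *Cd79a* formed the myeloid gate, which held 3573 cells, namely monocytes, macrophages and dendritic cells. Cells with at least 500 CPM of *Cd79a* and less than 200 CPM of *Csf1r* formed the B cell gate (447 cells), and 1243 cells lay outside both gates. The myeloid gate held 599 cells of WT sham, 493 of CD3e-/- sham, 1157 of WT TAC, 681 of CD3e-/- TAC and 643 of CD8-depleted TAC. The median number of reads per cell of the gate was 77573, 84388, 102179, 129158 and 106106 in the same order, so that the sham groups were the shallowest. Summed markers of the stress response to tissue digestion (8 genes such as *Fos* and *Hspa1a*) were 13388 and 11745 CPM in the gated cells of the sham groups and 5790 to 6748 CPM in those of the TAC groups, and cardiomyocyte markers were at 61 and 63 CPM in the sham groups and at 33 to 35 CPM in the TAC groups. The part of depth, stress response and free RNA in the differences between sham and TAC below was not tested. Depth ordered the groups as the summed members below do, with CD3e-/- TAC the deepest. Its part in the differences between TAC groups and between cell classes was not tested either. As a check of the labels, *Cd3g* was read in 53 of 1000 cells of WT sham and 47 of 1615 of WT TAC. In CD3e-/- sham and CD3e-/- TAC it was read in 3 of 835 and 1 of 919 cells. Reads of *Cd3e* itself remained in the CD3e-/- groups, in 42 and 83 cells (3.73 and 5.64 CPM over all kept cells). In WT sham and WT TAC *Cd3e* was read in 69 and 103 cells (17.8 and 10.8 CPM). The share of cells with *Cd3e* was thus higher in CD3e-/- TAC (9.03%) than in WT TAC (6.38%), while the level was lower. *Cd8a* was read in 8 of 894 cells of the group labelled CD8-depleted TAC (0.895%, exact 95% interval 0.387 to 1.76%). In WT TAC it was read in 16 of 1615 cells (0.991%, 0.567 to 1.6%). *Cd8b1* was read in 6 (0.671%, 0.247 to 1.46%) and 12 (0.743%, 0.385 to 1.29%) cells of these groups. In CD3e-/- sham and CD3e-/- TAC, *Cd8a* was read in 2 and 4 cells and *Cd8b1* in 0 of 835 and 0 of 919. A loss of CD8+ T cells in CD8-depleted TAC was thus not seen in these reads, which come from few cells. Whether the antibody removed those cells was not tested.

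The summed level of all 32 members in the myeloid gate was 3937 CPM in WT sham, 4897 in CD3e-/- sham, 5289 in WT TAC, 6411 in CD3e-/- TAC and 5443 in CD8-depleted TAC. The median cell showed the same order of the groups, with 2935, 3407, 3688, 4654 and 3926 CPM. CD3e-/- TAC was the highest group for 19 of the 32 members and WT sham the lowest for 20. Among all genes with at least 20 CPM in a group, 24.4% were highest in CD3e-/- TAC and 27.3% lowest in WT sham. The member counts have no such floor. *Egln3* is among the 19 and *Egln3* and *Ddit4* are among the 20, with levels under 20 CPM in all groups. In the B cell gate the sum did not follow this order, with 2585, 2851, 2609, 2404 and 2697 CPM in the same groups.

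**Figure D1:**
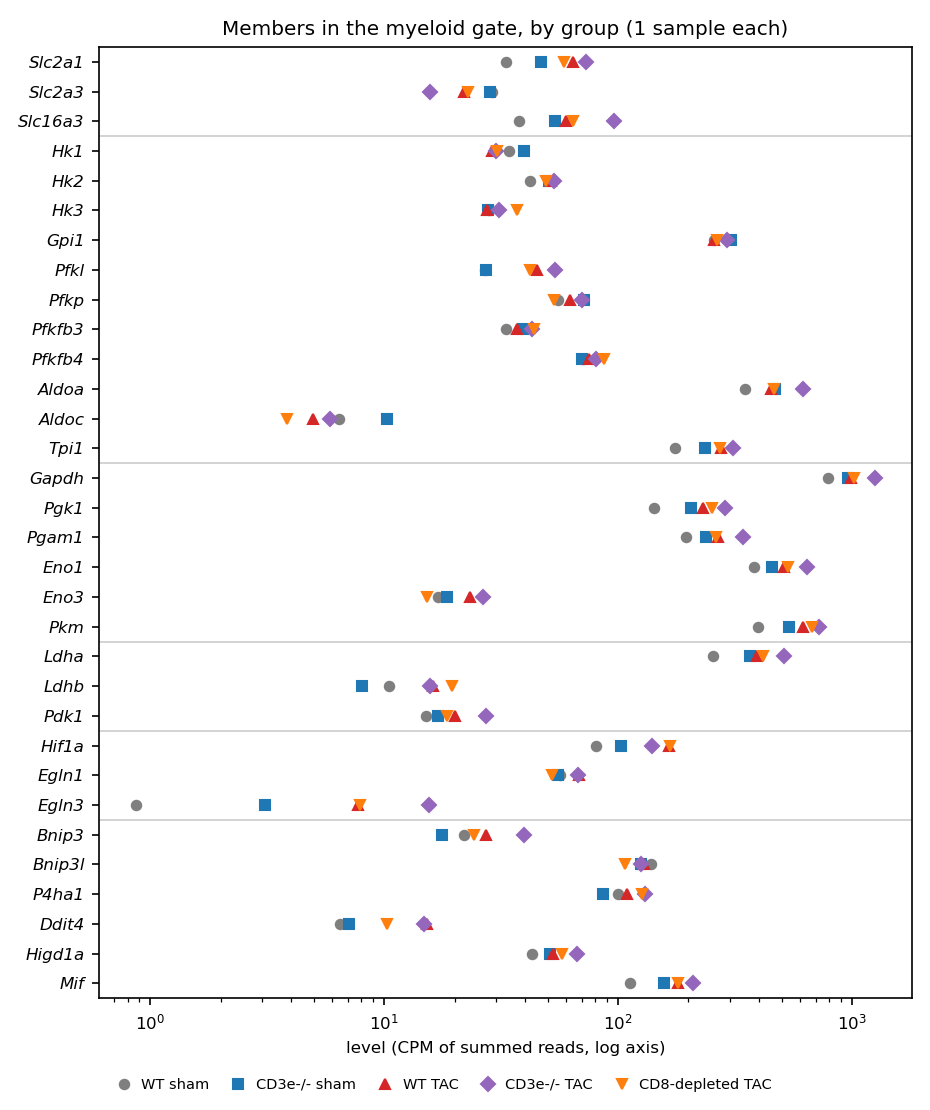
Level of each of the 32 members in the myeloid gate (horizontal log axis, CPM of summed reads) in the 5 groups (1 marker each, 1 sample per group), with lines between the roles. WT sham lies leftmost for 20 members and CD3e-/- TAC rightmost for 19; Slc2a3 runs the other way, from 29.1 CPM in WT sham to 15.7 CPM in CD3e-/- TAC.

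TAC was first compared with sham in WT mice, which asks how the members differ 1 week into pressure overload. Genes were compared where 1 of both groups had at least 20 CPM, and were called at a ratio of 1.5-fold or more with 10 CPM added to both levels. Of the 28 members compared, 7 were higher in WT TAC, namely *Slc2a1*, *Tpi1*, *Pgk1*, *Pkm*, *Ldha*, *Hif1a* and *Mif*, which is 7 of 28 where 3.35% of all 7023 genes compared were higher. None of the members was lower, against 2.59% of all genes. The median log2 ratio of the members was 0.28, with 24 of 28 above 0, and that of all genes was 0.03.

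Among the carriers, *Slc2a1* (the glucose carrier GLUT1) had 33.2 CPM in WT sham, 46.8 in CD3e-/- sham, 64.3 in WT TAC, 72.8 in CD3e-/- TAC and 58.5 in CD8-depleted TAC. Every TAC group was above both sham groups, and WT TAC was 1.94-fold higher than WT sham (95% interval 1.84 to 2.04). *Slc16a3* (MCT4, which exports lactate) had 37.7, 53.5, 60, 95.7 and 64.2 CPM in the same order, and at 1.59-fold the difference between WT TAC and WT sham was a log2 ratio of 0.55 with 10 CPM added, just outside the limit for a call. *Slc2a3* (GLUT3) went the other way, with 29.1, 28.4, 22.1, 15.7 and 22.9 CPM, so that all 3 TAC groups lay below both sham groups. The share of all genes whose TAC groups lie apart from the sham groups in this way is not given here.

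In upper glycolysis, the hexokinases, which trap glucose in the cell, differed little. *Hk1* had 34.2 CPM in WT sham and 28.8 in WT TAC, *Hk2* 42.1 and 51.6, and *Hk3* 28.1 and 27.5. *Gpi1*, which isomerizes glucose 6-phosphate, had 257 and 258 CPM, with a ratio of 1 (0.986 to 1.02). The liver-type phosphofructokinase *Pfkl* had 27.1 CPM in WT sham, 27.4 in CD3e-/- sham, 45.1 in WT TAC, 53.5 in CD3e-/- TAC and 41.9 in CD8-depleted TAC. The 3 TAC groups did not overlap the sham groups, and for this gene too the share of all genes with such a separation is not given here. The platelet-type *Pfkp* had 55.5 CPM in WT sham and 62.1 in WT TAC and was highest in CD3e-/- sham, at 71.6 CPM. The bifunctional enzymes *Pfkfb3* and *Pfkfb4*, which set the level of the activator of phosphofructokinase, were within 1.11-fold and 1.07-fold of WT sham in WT TAC. *Aldoa*, the aldolase of most tissues, had 350 and 450 CPM, and *Tpi1*, the triosephosphate isomerase, had 176 CPM in WT sham, 235 in CD3e-/- sham, 275 in WT TAC, 310 in CD3e-/- TAC and 272 in CD8-depleted TAC.

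All 6 members of lower glycolysis were above WT sham in WT TAC, with a median log2 ratio of 0.43 against 0.13 for the 10 members of upper glycolysis compared. *Pgk1*, which makes the first ATP of the pathway, had 142 CPM in WT sham, 204 in CD3e-/- sham, 231 in WT TAC, 286 in CD3e-/- TAC and 253 in CD8-depleted TAC. The ratio of WT TAC to WT sham was 1.63 (1.59 to 1.67). *Pkm*, the pyruvate kinase, had 398, 539, 616, 724 and 677 CPM in the same groups. Both genes thus had WT sham as the lowest and CD3e-/- TAC as the highest group, with the sham group of CD3e-/- mice in between. *Gapdh* had 787 CPM in WT sham and 994 in WT TAC, *Pgam1* 195 and 266, *Eno1* 379 and 512, and the muscle-type enolase *Eno3* 17 and 23.2. Reads of the near-identical copy *Eno1b* came to 27.3% of those of *Eno1* and *Eno1b* together, and copies of *Bnip3l*, *Mif*, *Gapdh* and *Pgk1* to 7.75%, 7.38%, 5.69% and 3.58%, so that these levels are uncertain to that extent. With the copies added, no ratio in the 5 comparisons changed by more than 0.013 on the log2 scale.

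*Ldha*, which turns pyruvate into lactate, had 254 CPM in WT sham, 368 in CD3e-/- sham, 393 in WT TAC, 511 in CD3e-/- TAC and 415 in CD8-depleted TAC, and WT TAC was 1.55-fold above WT sham (1.52 to 1.58). *Pdk1*, the kinase that holds pyruvate out of the mitochondria by inhibiting pyruvate dehydrogenase, had 15.1 and 20 CPM in WT sham and WT TAC. *Hif1a* showed the largest called ratio of this comparison among the members, with 80.7 CPM in WT sham, 103 in CD3e-/- sham, 166 in WT TAC, 140 in CD3e-/- TAC and 167 in CD8-depleted TAC, or 2.05-fold between the WT groups (1.99 to 2.12). Between CD3e-/- TAC and WT TAC, *Hif1a* had a log2 ratio of -0.23, which did not reach 1.5-fold. *Egln1*, the main oxygen-sensing hydroxylase, had 56.5 CPM in WT sham and 68.1 in WT TAC. *Mif*, a cytokine gene with a hypoxia response, had 112 CPM in WT sham, 157 in CD3e-/- sham, 180 in WT TAC, 210 in CD3e-/- TAC and 181 in CD8-depleted TAC. *Bnip3* and *Bnip3l*, which mark mitochondria for removal, had 21.9 and 138 CPM in WT sham and 27.1 and 129 in WT TAC. *P4ha1*, a subunit of collagen prolyl hydroxylase, had 99.5 and 109 CPM in the same groups, and *Higd1a*, a protein of the mitochondrial respiratory complexes, had 42.7 and 52.8 CPM.

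These calls rest on few cells in part. Of the 1157 cells of WT TAC, 47 had at least 1000 CPM of *Arg1* or at least 500 CPM of *Saa3*, genes of activated macrophages, and no cell of WT sham did. This set of cells was chosen after its values had been seen. In those 47 cells *Hif1a* stood at 625 CPM and *Pgk1* at 638 CPM, against 139 and 208 CPM in the other 1110. Without such cells 2 of the 7 members, *Slc2a1* and *Hif1a*, remained above 1.5-fold. With the shares of the classes described below held equal in both groups, these 2 and *Eno3*, which is not among the 7, were above it. The median log2 ratio over the members was then 0.23. This rests on the 4 classes with at least 20 cells in both groups. Ly6c2-high and Spp1-high, with 19 and 11 cells in WT sham, were left out. When mitochondrial, ribosomal protein and stress response genes were left out of the total reads, 7 members were higher.

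In CD3e-/- mice, 3 of the 28 members compared were higher in TAC than in sham (*Slc16a3*, *Pfkl* and *Bnip3*), where 5.41% of all 6931 genes were higher, and none was lower, where 3.43% of all genes were. The median log2 ratio was 0.39, with 23 of 28 members above 0, and 0.05 for all genes. The share past the fold is near that of all genes, while most members lay above the median of all genes. *Bnip3* had 17.6 CPM in CD3e-/- sham and 39.4 in CD3e-/- TAC, a ratio of 2.24 (2.09 to 2.4), and *Slc16a3* 53.5 and 95.7 CPM, a ratio of 1.79 (1.72 to 1.86). *Pfkl* had 27.4 and 53.5 CPM, a ratio of 1.96 (1.85 to 2.07). *Slc2a3* was 0.554 times as high in CD3e-/- TAC (0.518 to 0.593), a log2 ratio of -0.58 with 10 CPM added, just short of a call as lower. *P4ha1* had 86.1 and 130 CPM, and *Pdk1* 17 and 27.3 CPM. The number of members called was 11 in place of 3 when the CPM of single cells were averaged in place of summing reads, and 9 without the 5% of cells with the most reads. Without the cells high in *Arg1* or *Saa3* it was 1.

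The CD3e-/- sham group was above WT sham for 19 of 26 members compared, with a median log2 ratio of 0.25 against -0.02 for all genes. No member passed 1.5-fold in either direction, where 1.38% of all 6908 genes were higher and 1.65% lower. The largest ratios were those of *Ldha*, 1.45-fold (1.42 to 1.48), and *Pgk1*, 1.44-fold (1.4 to 1.48). This comparison shares WT sham with the TAC comparison in WT mice and CD3e-/- sham with that in CD3e-/- mice.

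CD3e-/- TAC and WT TAC were then set side by side, to ask how the members differ after the same operation without T cells. *Slc16a3* was the only member of the 28 compared above 1.5-fold, at 95.7 CPM against 60 CPM, or 1.59-fold (1.55 to 1.64), where 0.999% of all 6906 genes were higher, and none was lower, where 0.623% of all genes were. Its call did not hold without the cells high in *Arg1* or *Saa3*, when it had 77.9 CPM in CD3e-/- TAC and 54.5 CPM in WT TAC. Nor did it hold with class shares held equal, when its log2 ratio was 0.40. That ratio rests on 4 classes. Lyve1-high and Cd209a-high, described below, had 13 and 6 cells in CD3e-/- TAC and were left out of it. The median log2 ratio of the members was 0.19, with 24 of 28 above 0, against 0.00195 for all genes. With class shares held equal over the same 4 classes it was 0.12, with 21 of 28 above 0. *Aldoa* had 450 CPM in WT TAC and 620 in CD3e-/- TAC, and *Ldha* 393 and 511 CPM.

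No member of the group with the CD8 antibody differed from WT TAC by 1.5-fold, where 0.578% of all 6919 genes were higher and 0.26% lower. The median log2 ratio of the members was 0.03, and 17 of 28 were above 0, where that of all genes was 0.01. The widest differences among those compared were *Eno3*, at 23.2 CPM in WT TAC and 15.2 CPM in CD8-depleted TAC, and *Egln1*, at 68.1 and 52.1 CPM. *Hif1a* (166 and 167 CPM) and *Mif* (180 and 181 CPM) had a ratio of 1.01 each, with intervals of 0.987 to 1.03 and 0.988 to 1.03.

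**Figure D2:**
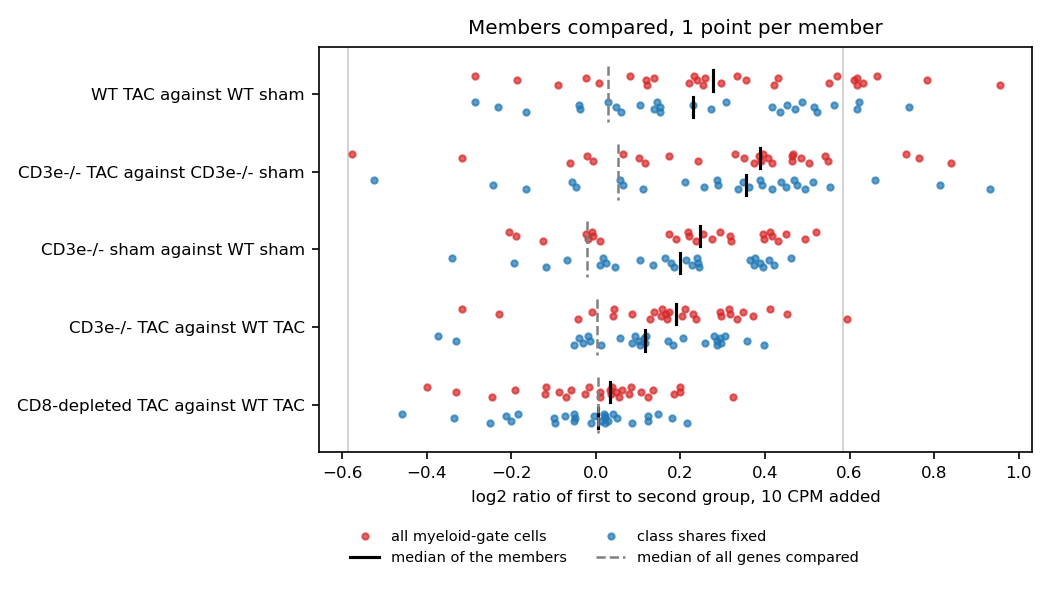
Log2 ratio of each member compared (1 point each, 10 CPM added) in the 5 comparisons, over all cells of the myeloid gate (red) and with class shares held equal (blue), with the median of the members (black) and of all genes (grey, dashed); thin lines mark 1.5-fold. The medians of the members run from 0.39 in CD3e-/- TAC against CD3e-/- sham to 0.03 in CD8-depleted TAC against WT TAC. Blue points use only the classes with at least 20 cells in both groups.

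*Aldoc*, *Ldhb*, *Egln3* and *Ddit4* were under 20 CPM in all groups and entered no comparison of groups over the whole gate. *Ldhb* and *Egln3* reached 20 CPM in a class of WT TAC and enter comparisons between classes below. *Egln3*, a classical target of Hif1a, had 0.87 CPM in WT sham, 3.1 in CD3e-/- sham, 7.75 in WT TAC, 15.5 in CD3e-/- TAC and 7.89 in CD8-depleted TAC. The order of these levels was that of the summed members. To compare shares of cells, each cell was thinned to 39368 reads and shallower cells were left out, namely 96, 67, 105, 45 and 45 cells of the gate in the same order. A read of *Egln3* was then left in 1.19% of cells in WT sham (exact interval 0.439 to 2.58%), 1.41% in CD3e-/- sham, 4.09% in WT TAC (2.97 to 5.46%), 8.96% in CD3e-/- TAC (6.86 to 11.5%) and 4.01% in CD8-depleted TAC. Before thinning the shares were 1.67, 1.83, 5.53, 11.3 and 5.44%. In the B cell gate, where cells had 47214 reads in the median before thinning, the share was 0.35% of 286 thinned cells of all groups and 0.447% of all its cells. The intervals of WT TAC and CD3e-/- TAC did not overlap, but they cover counting error in 1 sample each and not differences between mice. In cells high in *Arg1* or *Saa3*, *Egln3* stood at 63.6 CPM in WT TAC and 43.2 CPM in CD3e-/- TAC, and in the others at 4.54 and 10.3 CPM. *Ddit4*, an inhibitor of mTOR signalling, had 6.48 and 7.11 CPM in the sham groups and 15.2, 14.8 and 10.3 CPM in WT TAC, CD3e-/- TAC and CD8-depleted TAC. *Ldhb*, the lactate dehydrogenase subunit of heart muscle, had 10.5 and 8.01 CPM in the sham groups and 16.2, 15.7 and 19.6 CPM in those TAC groups.

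Shares of cells at equal depth were also read for *Slc16a3*, *Ldha* and *Hif1a*. A read of *Slc16a3* was left in 17.9% of gated cells of WT sham, 26.1% of CD3e-/- sham, 30.1% of WT TAC, 41.7% of CD3e-/- TAC and 33.8% of CD8-depleted TAC, and in 6.29% of the cells of the B cell gate. Without thinning these shares were 21.2, 28.8, 34.7, 46.7 and 39%, and 7.38% in the B cell gate. For *Ldha* the thinned shares were 57.5, 65.7, 72.1, 81.8 and 73.1%, with 42% in the B cell gate, and the unthinned ones 51.9, 59.8, 68.1, 79.7 and 69.5%, with 34%. The factor *Hif1a* had thinned shares of 39.8, 44.6, 54.7, 60.2 and 54.8%, with 30.8% in the B cell gate, and unthinned ones of 42.2, 47.9, 57, 66.8 and 57.1%, with 29.1%. *Hif1a* was thus read in the most cells in CD3e-/- TAC, while its summed level was higher in WT TAC.

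**Figure D3:**
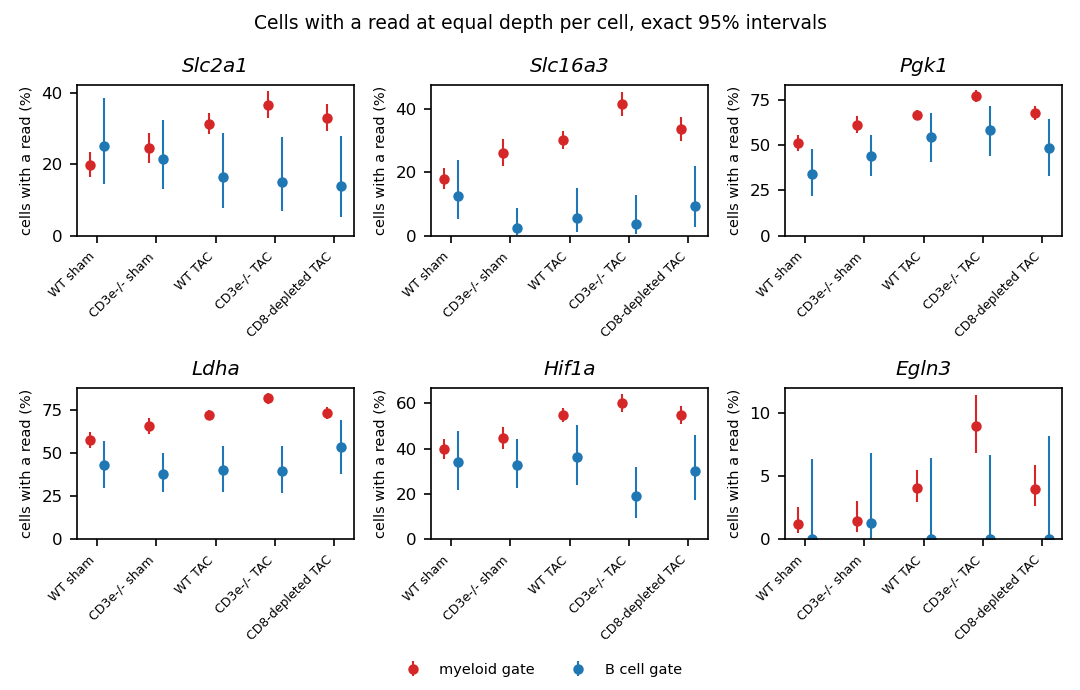
Share of cells with a read (vertical axis, %, from 0) of 6 members in the myeloid gate (red) and the B cell gate (blue) of the 5 groups, each cell thinned to 39368 reads; bars are exact 95% intervals for counting error. For Egln3 the myeloid share is 1.19% in WT sham and 8.96% in CD3e-/- TAC.

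The members were then read across cell classes. The myeloid gate was parted by genes that are not members, each cell going to the first class it met: Ly6c2-high (at least 1000 CPM, 394 cells), Spp1-high (2000 CPM, 136 cells), Lyve1-high (200 CPM, 191 cells), Cd209a-high (500 CPM, 107 cells), Ccr2-high (1000 CPM, 1350 cells) and Ccr2-low (1395 cells). *Ly6c2* marks inflammatory monocytes, *Lyve1* resident macrophages and *Cd209a* a kind of dendritic cell. The summed levels of 5 monocyte markers were 5485 CPM in Ly6c2-high and 24 CPM in Lyve1-high, and those of 6 resident macrophage markers were 690 and 6607 CPM. The cut on *Ccr2* passes through a continuum, with 434 of the 3573 cells within 1.5-fold of it. Depth differed between the classes. The median number of reads per cell was 124646 in Ly6c2-high, 165477 in Spp1-high, 91380 in Lyve1-high, 150529 in Cd209a-high, 112551 in Ccr2-high and 76044 in Ccr2-low.

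Over all groups, 14 members were highest in Ly6c2-high and 10 in Spp1-high among the 6 myeloid classes, and 20 were lowest in Lyve1-high. Of all 7954 genes with at least 20 CPM in a myeloid class, 22% were highest in Ly6c2-high, 16.4% were highest in Spp1-high and 25.2% were lowest in Lyve1-high. The B cell gate was the lowest of the 7 gated classes for 19 members, and for 29.6% of 8603 genes. *Slc2a1* had 119 CPM in Ly6c2-high, 65.5 in Spp1-high, 63.7 in Cd209a-high, 57.9 in Ccr2-high, 42.2 in Ccr2-low and 14.6 in Lyve1-high. *Hif1a* had 272, 211, 116, 137, 99.6 and 47.9 CPM in the same classes, and *Pkm* 1079, 789, 457, 614, 461 and 364 CPM. Both the monocyte class and the Spp1-high class were thus well above the resident class for the carrier, the factor and the last enzyme of the pathway. The level of Lyve1-high cells holds 13 cells of CD3e-/- TAC that stood apart, with *Slc16a3* at 246 CPM against 9.73 to 30.7 CPM in the other 4 groups and *Slc2a1* at 55.2 CPM against 4.64 to 10.3 CPM. Some members had another order. *Aldoa* was highest in Spp1-high, with 823 CPM against 558 CPM in Ly6c2-high, as were *Pgam1* (495 and 352 CPM) and *Mif* (317 and 251 CPM). *Hk1* was highest in Lyve1-high, at 39.9 CPM, and lowest in Spp1-high, at 19.5 CPM. *Bnip3l* was lowest in Ly6c2-high, at 96.1 CPM, and *Slc2a3* was higher in the B cell gate, at 61.8 CPM, than in any myeloid class (18.7 to 28.6 CPM).

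**Figure D4:**
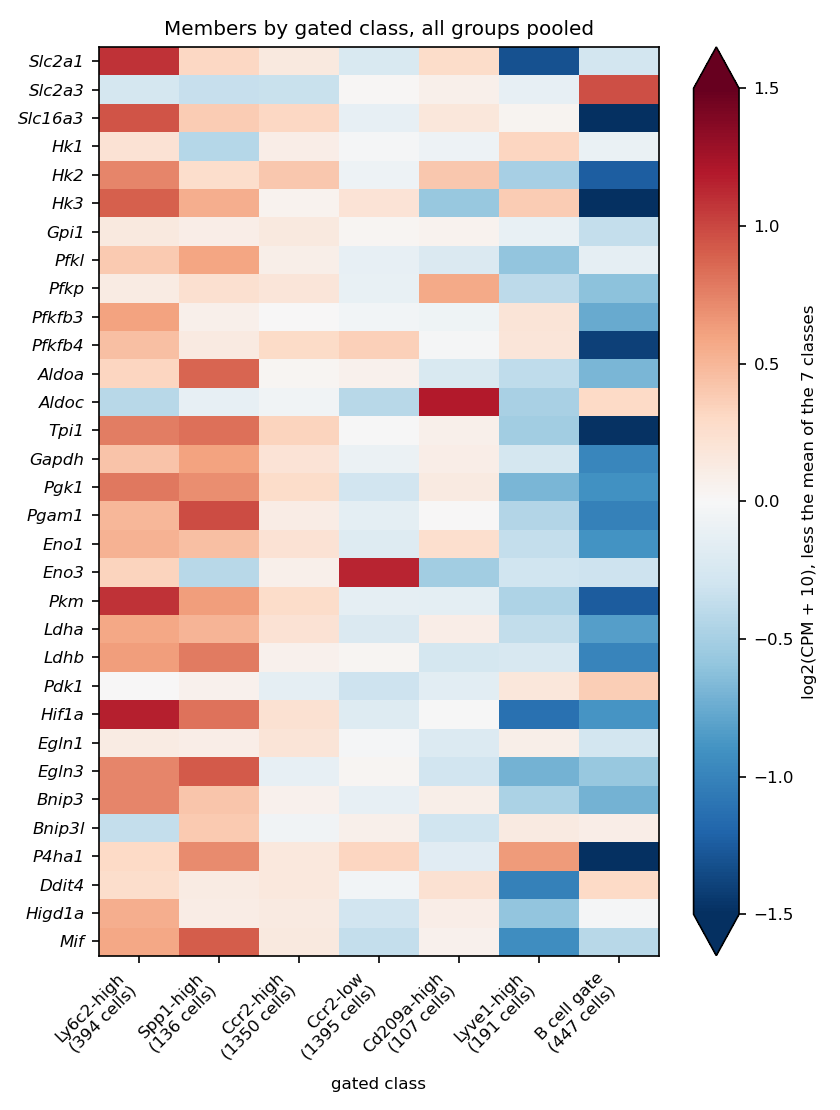
Level of each member in the 6 myeloid classes and the B cell gate, over all groups, as log2(CPM + 10) less its mean over the 7 classes (colour, red above and blue below). The 2 leftmost columns, Ly6c2-high and Spp1-high, hold the highest myeloid level of 24 members; Lyve1-high holds the lowest of 20, while Aldoc stands out in Cd209a-high and Eno3 in Ccr2-low.

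Since the classes take different shares of each group, they were also compared within WT TAC alone, where cells share the animal source and the handling. Ly6c2-high (101 cells) was above Lyve1-high (50 cells) by 1.5-fold for 18 of 28 members compared, where 22% of all 7545 genes were, and below for 1, *Bnip3l*, where 24.2% of all genes were. Spp1-high (55 cells) was above Lyve1-high for 17 of 29 members, where 17.3% of all genes were, and below for none, where 21.1% of all genes were. Against the Ccr2-low class (398 cells), Ly6c2-high was above for 10 of 29 members, where 11.9% of all genes were, and below for 1, *Eno3*, where 15.4% were. Between Ly6c2-high and Lyve1-high of WT TAC, the largest differences among the members compared were those of *Slc2a1*, with 153 and 7.71 CPM (log2 ratio 3.21), and *Slc16a3*, with 107 and 9.73 CPM. Next were *Hif1a*, with 299 and 47.4 CPM, and *Pgk1*, with 341 and 73.4 CPM. For CD8-depleted TAC the median log2 ratio of the members between Ly6c2-high and Lyve1-high was 1.33, against 1.07 in WT TAC and 0.44 in CD3e-/- sham, where the classes held 25 and 30 cells. The classes are all from 1 sample in each group, so that these counts describe its cells only.

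Within classes, the difference between TAC and sham was not alike. In Ccr2-low cells the median log2 ratio of the members was 0.43 between WT TAC and WT sham and 0.54 between CD3e-/- TAC and CD3e-/- sham, while all genes stood at 0.03 and 0.05. *Ldha* had 179 CPM in Ccr2-low cells of WT sham, 231 in CD3e-/- sham, 331 in WT TAC, 456 in CD3e-/- TAC and 295 in CD8-depleted TAC, and *Slc16a3* had 25.8, 29.6, 44.5, 77.2 and 47.2 CPM. In Ccr2-high cells the medians were 0.27 in WT and 0.15 in CD3e-/- mice. Lyve1-high cells of WT mice had a median of 0.06, with *Hif1a* at 48.4 CPM in sham and 47.4 CPM in TAC, and Cd209a-high cells had a median of 0.03. In the B cell gate it was -0.01 in WT and -0.02 in CD3e-/- mice. Ly6c2-high cells of CD3e-/- mice had a median of 0.74, from 25 cells of sham and 133 of TAC. Whether these medians differ between classes could not be tested with 1 sample a group. Between CD8-depleted TAC and WT TAC the median in Ccr2-low cells was -0.17, with 5 of 27 members above 0, where 52.1% of all genes were above 0. It was 0.16 in Ly6c2-high cells, with 20 of 29 above 0. Over the whole gate these directions are not seen, as the median there was 0.03. The share of Ly6c2-high cells in the gate was 18% in CD8-depleted TAC and 8.73% in WT TAC. With class shares held equal over 5 classes, the median was 0.00448, with 14 of 28 members above 0. Cd209a-high, with 14 cells in CD8-depleted TAC, was left out of it. The part of the Ly6c2-high share in the median over the gate was not tested further.

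**Figure D5:**
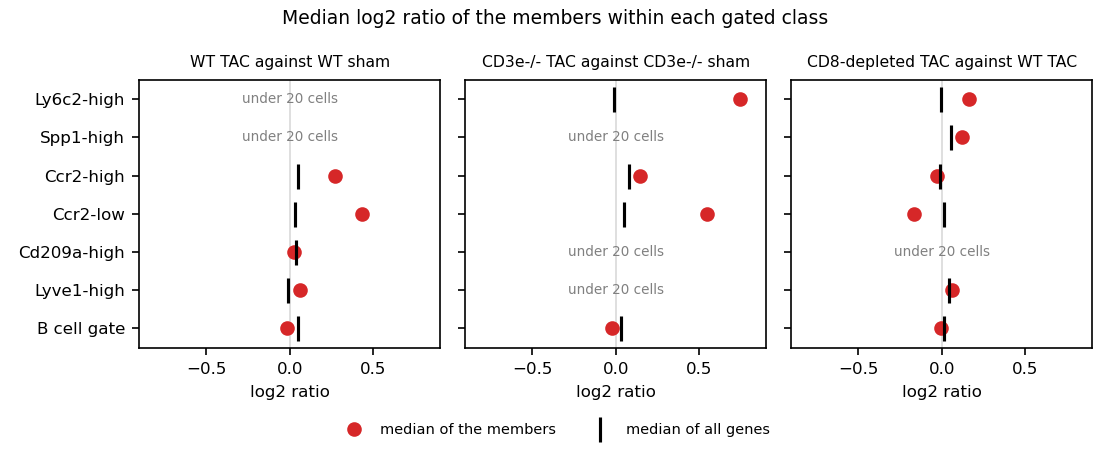
Median log2 ratio of the members (red points) and of all genes compared (black ticks) within each gated class, for TAC against sham in WT and in CD3e-/- mice and for CD8-depleted TAC against WT TAC (horizontal axis, 10 CPM added). The members lie furthest right of all genes in Ccr2-low cells (0.43 and 0.54) and in Ly6c2-high cells of CD3e-/- mice (0.74), and near them in the B cell gate; pairs with under 20 cells are not drawn.

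*P4ha1* had the widest range over the 7 gated classes, from 156 CPM in Spp1-high and 149 CPM in Lyve1-high to 16.2 CPM in the B cell gate, a log2 range of 2.66. Over 29 profiles of a class in a group, the genes with the pattern most like it among 10376 were *Vamp8*, *Cndp2*, *Sirpa*, *Lrpap1* and *Rab8b*, with Pearson r of 0.93 to 0.91 on log2(CPM + 10). These profiles come from 1 library, and the r are a description.

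Of 60 other genes of the pathway, such as further carriers, kinases of pyruvate dehydrogenase and targets of Hif1a, 54 had a row. From 21 to 25 of them could be compared, and their medians lay closer to those of all genes than the members' medians did. Between WT TAC and WT sham, 1 of 21 compared was higher, *Ndrg1*, a hypoxia-induced gene, at 27.1 and 14.1 CPM, and none was lower. Between CD3e-/- TAC and CD3e-/- sham, 3 of 25 were higher. Among them were *Ndrg1* (36.3 and 17.6 CPM) and the collagen lysyl hydroxylase *Plod1* (66.4 and 36 CPM). The repressor *Bhlhe40* was lower there (92 and 191 CPM). CD3e-/- sham was above WT sham for 3 of 21, namely *Slc2a6* (38.8 and 19 CPM), *Bhlhe40* (191 and 122 CPM) and *Siah2* (37 and 20.6 CPM). CD3e-/- TAC was above WT TAC for 2 of 24, among them *Slc2a6* (48.8 and 26.5 CPM). None of 22 differed between CD8-depleted TAC and WT TAC. Beside these counts, 3.35% of all genes compared were higher in WT TAC than in WT sham and 2.59% lower. In CD3e-/- TAC 5.41% were higher than in CD3e-/- sham and 3.43% lower. The share above WT sham in CD3e-/- sham was 1.38%, and that above WT TAC in CD3e-/- TAC was 0.999%. For CD8-depleted TAC against WT TAC, 0.578% were higher and 0.26% lower.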

How the data were processed

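CD45+ cells of mouse hearts in 5 hashtag groups were sequenced by TAS-Seq after capture by BD Rhapsody, pooled in 1 library. The matrix as deposited by the authors holds raw counts of reads (not molecules) per gene and barcode. The submitters' processing notes name cutadapt 2.10, Bowtie2 2.4.2 and GRCm38, and the authors assigned hashtags and called doublets. The name of the table refers to an inflection point and to an error correction, whose settings are not given in the sources used here. Hashtags were tied to groups by the submitters' own notes to the table. Of 5363 columns, 40 doublets and 8 without hashtag were left out. Cells with 500 genes or more (of genes in 5 or more cells) and a mitochondrial share of at most 0.4 were kept, with no further doublet caller. With 1 library, no barcodes are shared between libraries.

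Reads were summed per class and group, given as CPM with exact Poisson 95% intervals, and compared as log2 ratios with 10 CPM added where 1 of both groups had 20 CPM; calls are at 1.5-fold. Intervals of ratios are exact for 2 Poisson counts. Reads copy molecules, so intervals are too narrow. Pairs of a class need 20 cells each. For ratios with class shares held equal, each class took the mean of its shares in both groups. Classes with under 20 cells in either group were left out of these ratios. Each share of cells has an exact (Clopper-Pearson) interval. Gates are fixed cuts on CPM of single cells. Every member is named; other pathway genes are named where past 1.5-fold, except 1 that is not reported here, and the 5 genes most like the member of widest range. The members and lists were chosen with earlier results of these data known. The comparison was tested on simulated data. Tables were handled in pandas 2.3.3 under Python 3.11.15, statistics came from scipy 1.17.1 and numpy 2.4.6, and plots from matplotlib 3.10.9. In all, 12 other settings were chosen at the outset and 2 after seeing the data. The paper's methods name Seurat clusters, which were not used here.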

Additional observations from a re-analysis of the deposited data

How the results depend on the processing

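No paired analysis was possible because each group was 1 sample. A change of direction was counted only for members called in the main setting, and none of these changed direction under the alternatives. Ratios that were not called could change sign. That of *Gpi1* between WT TAC and WT sham, for example, kept its sign in 5 of 14 alternatives. The limits are those of 1 sample a group and of reads that are copies of molecules, and members near 1.5-fold cross it with small changes. Members higher in WT TAC than in WT sham were 7, and became 3 with gate cuts halved, 1 with 50 CPM added, 3 with class shares held equal and 2 without cells high in *Arg1* or *Saa3*, and 5 to 9 otherwise. Members higher in CD3e-/- TAC than in CD3e-/- sham were 3, and became 11 with the mean of single-cell CPM, 6 with 1 CPM added, 0 with 50 CPM added, 9 without the 5% of cells with the most reads and 1 without the *Arg1* or *Saa3* cells. Members lower there were 0 and became 1 (*Slc2a3*) with cuts halved, mitochondrial reads left out, median ratio size factors, 1 CPM added, without the 5% of cells with the most reads, and with stress response and ribosomal protein reads also left out. *Slc16a3*, the 1 member higher in CD3e-/- TAC than in WT TAC, was not called, leaving 0, with cuts halved, the mean of single-cell CPM, 50 CPM added, without the deepest 5% of cells, with equal class shares and without the *Arg1* or *Saa3* cells.

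Between classes of WT TAC, which were compared under 13 alternatives chosen after seeing the data, members higher in Ly6c2-high than in Lyve1-high were 17 to 21 and those higher in Spp1-high 13 to 21, and those higher in Ly6c2-high than in Ccr2-low became 16 in place of 10 with the mean of single-cell CPM. Members lower in Ly6c2-high than in Lyve1-high became 2 in place of 1 with cuts doubled, the mean of single-cell CPM and without the *Arg1* or *Saa3* cells. Members lower in Spp1-high became 2 with cuts doubled and 1 with the mean of single-cell CPM, without the deepest 5% of cells and without the *Arg1* or *Saa3* cells, in place of 0. *Eno3*, lower in Ly6c2-high than in Ccr2-low, was not called (0) with 50 CPM added. The cause of these changes was not tested.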

Other observations

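*Eno3*, the enolase of muscle, was read mostly in a small set of cells of the myeloid gate. The 255 cells with at least 100 CPM of *Ace*, a marker of Ly6c-low monocytes, held 72.4% of its reads. *Eno3* stood at 199 CPM in them and at 6.36 CPM in the other 3318 cells. Within the groups it had 162 CPM in such cells of WT sham, 170 in CD3e-/- sham, 258 in WT TAC, 191 in CD3e-/- TAC and 156 in CD8-depleted TAC, and 3.89 to 9.37 CPM in the others. A read was present in 51.8% of the cells with *Ace* and in 3.92% of the others, whose median depths were 112024 and 98934.5 reads. *Slc16a3* also stood higher in the cells with *Ace*, at 124 CPM against 60.9 CPM, while *Hif1a* had 155 and 140 CPM. *Ace* was picked after these values had been seen, and the cells with it lie in several classes (108 in Ccr2-low, 93 in Ccr2-high and 49 in Ly6c2-high). Markers of cardiomyocytes, which use this enolase, were at 33 to 63 CPM as a sum over the gate.

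*Aldoc*, the aldolase known from brain, was read in 32% of Cd209a-high cells at equal depth and in 2.4% to 4.89% of the cells of the other 5 myeloid classes, and in 34.6% and 3.14% to 6.62% without thinning. In the B cell gate the shares were 4.55% and 4.7%. Its level was 29.9 CPM in Cd209a-high cells and 2.42 to 6.85 CPM in the others. It lay above the other myeloid classes in each of the 3 groups with 20 or more Cd209a-high cells, from 23.6 CPM in WT TAC to 57.5 CPM in CD3e-/- sham.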
